A study of Mus musculus with 55 samples.

Results

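Notch targets and ID factors form a set of 10 mouse genes, Hes1, Hes5, Hes6, Hey1, Notch1, Dll1, Id1, Id2, Id3 and Id4, out of 29680 genes that had a count in at least 1 library. The set was put together by name, and it was chosen by someone who already knew results of these data: the falls of Hes5 with KCl at 180 min in the maturation experiment were among them, so those falls are given here as a description with no test. All 10 genes were found, each represented by the RefSeq transcript with the most counts, and 9 of the 10 passed the filter on low counts in each experiment; Dll1 did not.

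RNA from primary neuronal cultures of CD1 mouse embryos (cortex with hippocampus) was sequenced from the 3′ end in 55 libraries, which fall into 21 groups of 2 to 4. In the maturation experiment (28 libraries), cultures at 7 days in vitro (7DIV) and 21DIV were left unstimulated (basal), depolarized with 55 mM KCl, or treated with 50 µM bicuculline plus 2.5 mM 4-aminopyridine (BicAP), for 15 or 180 min. In the stimuli experiment (27 libraries, all 21DIV), cultures were left basal, treated with 55 mM KCl or 50 µM bicuculline alone (Bic) for 15, 45 or 180 min, or silenced for 48 h with 1 µM tetrodotoxin (basal TTX) and then released from it by exchanging the medium (TTXw) for 15, 45 or 180 min. KCl depolarizes every cell, bicuculline blocks the GABA-A receptor and so frees synaptic activity, 4-aminopyridine blocks potassium channels, and tetrodotoxin blocks the sodium channels that carry action potentials. The labels name no transgene or other genotype, and cultures called 21DIV span several days, so that the 21DIV libraries of the maturation experiment carry 23DIV in their sample codes. The cultures hold neurons and glia, and nothing in the sources used here says that replicates came from separate embryos or preparations, so the p-values measure the spread between these libraries, which may be technical.

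Notch1 is a receptor that is cut after it meets a ligand such as Dll1 on a neighbouring cell; its intracellular part then joins the DNA-binding protein RBPJ and switches on target genes. Hes1, Hes5 and Hey1 are such targets and encode repressors of the basic helix-loop-helix (bHLH) class that hold back neurogenic factors, whereas Hes6 is a relative that counteracts Hes1 and is expressed in cells on their way to becoming neurons. The ID proteins, Id1 to Id4, carry the helix-loop-helix but no DNA-binding part, so they capture E proteins and keep bHLH factors off DNA; they are classical targets of BMP signalling through SMAD proteins. In the brain, Hes5, Id1, Id3 and Id4 are known from neural progenitors and astrocytes, and Id2 is also expressed by neurons.

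The stretches of promoter that bear on these genes are shown first, because Hes5 is the gene whose level moved most with stimulation. RefSeq windows of 250 bases before the transcript start (mouse build GRCm38.p6) were found for 7 of the 10 genes, in 9 windows; Hes1, Hey1 and Id1 were not matched. Of the 7, Hes5 alone held the RBPJ site GTGGGAA, and it held it at 2 places, 83 and 226 bases before the start of its transcript on chromosome 4, plus strand (gene at chr4:154960626-154962372). The site was present, on either strand, in 5.42% of all 32851 windows. The window of Hes5 lies before the start of one RefSeq transcript and inside the annotated span of another. Capitals mark the site:
Hes5, chr4:154960829-154960858, plus strand: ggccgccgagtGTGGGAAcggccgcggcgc
Hes5, chr4:154960686-154960715, plus strand: gggcgagcgcgTTCCCACagcccggacatt
The windows of Id3 and Id4 are shown because these genes stood out in the silenced cultures. Each held the core of the cyclic AMP response element, TGACG, once, on the minus strand; 17.8% of all windows held it. The SMAD site GGCGCC, found in 9.59% of windows, was present in those of Hes5, Dll1, Id2 and Id4 and overlaps no other site shown. Capitals mark the core of the response element for Id3 and the first Id4 line, and the SMAD site for the second:
Id3, chr4:136143640-136143669, plus strand: cgctgtcctcggCGTCAgaccagcctaagg
Id4, chr13:48260875-48260904, plus strand: cattggcccgagCGTCAttccccgaggtgg
Id4, chr13:48260956-48260985, plus strand: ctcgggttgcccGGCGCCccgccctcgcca
A match of letters says nothing of whether a factor was bound in these cultures.

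Library totals ranged from 1659170 to 14008109 counts in the maturation experiment and from 1176866 to 3907556 in the stimuli experiment. Levels are in CPM (counts per 1000000 counts of a library), adjusted by TMM factors within each experiment, so they are compared only within an experiment and only for the same gene. A gene is called here when its change reached 1.5-fold and its adjusted p was below 0.05 (quasi-likelihood test of edgeR, corrected over all genes by the Benjamini-Hochberg method). Statements that groups did or did not overlap are descriptions, as the share of all genes without overlap was not computed. The 8 neuronal markers (Rbfox3, Tubb3, Map2, Snap25, Syt1, Slc17a7, Gad1 and Gad2) had counts in every group, and their summed level was 3902 to 6049 CPM in the maturation libraries and 2668 to 7110 CPM in the stimuli libraries. The 11 astrocyte markers, among them Gfap, Aqp4 and Slc1a3, summed to 595 to 867 CPM in the 7DIV basal libraries, 4667 to 5689 CPM in 21DIV basal, 2639 to 3243 CPM in basal cultures of the stimuli experiment and 7446 to 8497 CPM in basal TTX; Gjb6 was at 0 in 4 of the 5 groups at 7DIV. The 6 microglial markers summed to at most 20.6 CPM in any library. In bulk samples, fewer cells of a type and less RNA per cell cannot be told apart. In the stimuli experiment the code of each library begins with A or B: the 8 libraries of KCl and Bic at 15 and 45 min are all B, those at 180 min and all TTX libraries are A, and basal has 2 A (replicates 1 and 2) and 1 B (replicate 5). Where that letter as a term changed a call, this is said.

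Across maturation, the levels of 7 of the 9 genes tested differed between basal 21DIV and basal 7DIV cultures, 5 higher and 2 lower at 21DIV, against 33.1% of the 10505 genes tested. Hey1 and Id3 were higher at 21DIV, together with the receptor Notch1 and its target Hes1, and Hes6 and Id4 were lower. The median log2 fold change of the 9 was 0.99, beside 0.0094 for all genes. The likelihood ratio test called 8 of the 9 and DESeq2 called 6.

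Hey1 stood at 13.7, 8.59 and 9.21 CPM in the 3 basal libraries at 7DIV and at 28.4, 26.8 and 25.01 CPM in the 3 at 21DIV. Every 21DIV library was above every 7DIV library. The log2 fold change was 1.38 (standard error, SE, 0.25, edgeR adjusted p = 0.000729). Hes6, which marks cells entering the neuronal lineage, went the other way: 37.0, 38.1 and 37.7 CPM at 7DIV against 16.4, 19.3 and 14.9 CPM at 21DIV, with no overlap and a log2 fold change of -1.13 (SE 0.20, edgeR adjusted p = 0.000671). Both calls passed in all 15 alternative settings.

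Notch1 was low at both stages, at 3.79, 4.91 and 2.17 CPM at 7DIV and 8.13, 10.02 and 6.31 CPM at 21DIV. The groups did not overlap, and the log2 fold change was 1.28 (SE 0.44, edgeR adjusted p = 0.0351). Hes1 was at 9.95, 1.23 and 8.13 CPM at 7DIV and at 12.97, 13.6 and 18.6 CPM at 21DIV, a log2 fold change of 1.17 (SE 0.42, edgeR adjusted p = 0.0421). The library that holds only 2 counts of Hes1, 7DIV basal replicate 3, had the lowest level. Both calls depended on single libraries, and with counts thinned to the smallest library Notch1 was at 0.75 (edgeR adjusted p = 0.284). That of Notch1 was lost without 7DIV basal replicate 2 or 4 (edgeR adjusted p = 0.061 and 0.161) or without 21DIV basal replicate 1 or 2 (0.0571 and 0.117). That of Hes1 was lost without 7DIV basal replicate 3, where the log2 fold change was 0.76 (edgeR adjusted p = 0.0912), without replicate 4 (0.0734) or without 21DIV basal replicate 2 or 3 (0.0662 and 0.15). Hes5, the other classical target, showed no call: 9.95, 20.9 and 14.4 CPM at 7DIV against 13.1, 15.9 and 26.3 CPM at 21DIV overlapped, with a log2 fold change of 0.36 (SE 0.33, edgeR adjusted p = 0.416). Dll1, the ligand, was at 0.474, 1.23 and 1.90 CPM at 7DIV and 2.25, 0.358 and 0.443 CPM at 21DIV, from 1 to 13 counts, which is too few to compare.

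Among the ID genes, Id3 was at 7.11, 9.21 and 4.06 CPM at 7DIV and at 8.99, 24.9 and 26.9 CPM at 21DIV. The groups overlapped by 1 library, 21DIV replicate 1, and the log2 fold change was 1.70 (SE 0.44, edgeR adjusted p = 0.00728). Without 7DIV basal replicate 4 the value was 1.33 (edgeR adjusted p = 0.0558). Id2 rose less, from 83.4, 80.4 and 78.0 CPM to 92.0, 134.7 and 142.6 CPM, a log2 fold change of 0.64 (SE 0.18, edgeR adjusted p = 0.0104). Its change fell under 1.5-fold without 21DIV replicate 2 (0.56) or 3 (0.53). Id4 was lower at 21DIV, at 7.78, 8.77 and 11.1 CPM against 13.7, 20.9 and 19.5 CPM at 7DIV. The groups did not overlap, and the log2 fold change was -0.93 (SE 0.28, edgeR adjusted p = 0.0187); without 7DIV replicate 3 or 4 the edgeR adjusted p was 0.0512 and 0.0642. Id1, at 5.21, 3.68 and 3.25 CPM against 7.27, 7.16 and 8.85 CPM, did not overlap either, but its log2 fold change of 0.99 (SE 0.40, edgeR adjusted p = 0.0638) missed the threshold. In the same comparison 10 of the 11 astrocyte markers were called higher at 21DIV (median log2 fold change 2.56), as were 8 of 8 oligodendrocyte markers tested (2.50) and 4 of 9 progenitor markers (0.75). Their part in the differences of Notch1, Hes1, Hey1, Id2 and Id3 was not tested. The first letters of the library codes are A or B at 7DIV and C, D or E at 21DIV; no label says what the letter stands for, and it cannot be told apart from the stage.

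**Figure D1:**
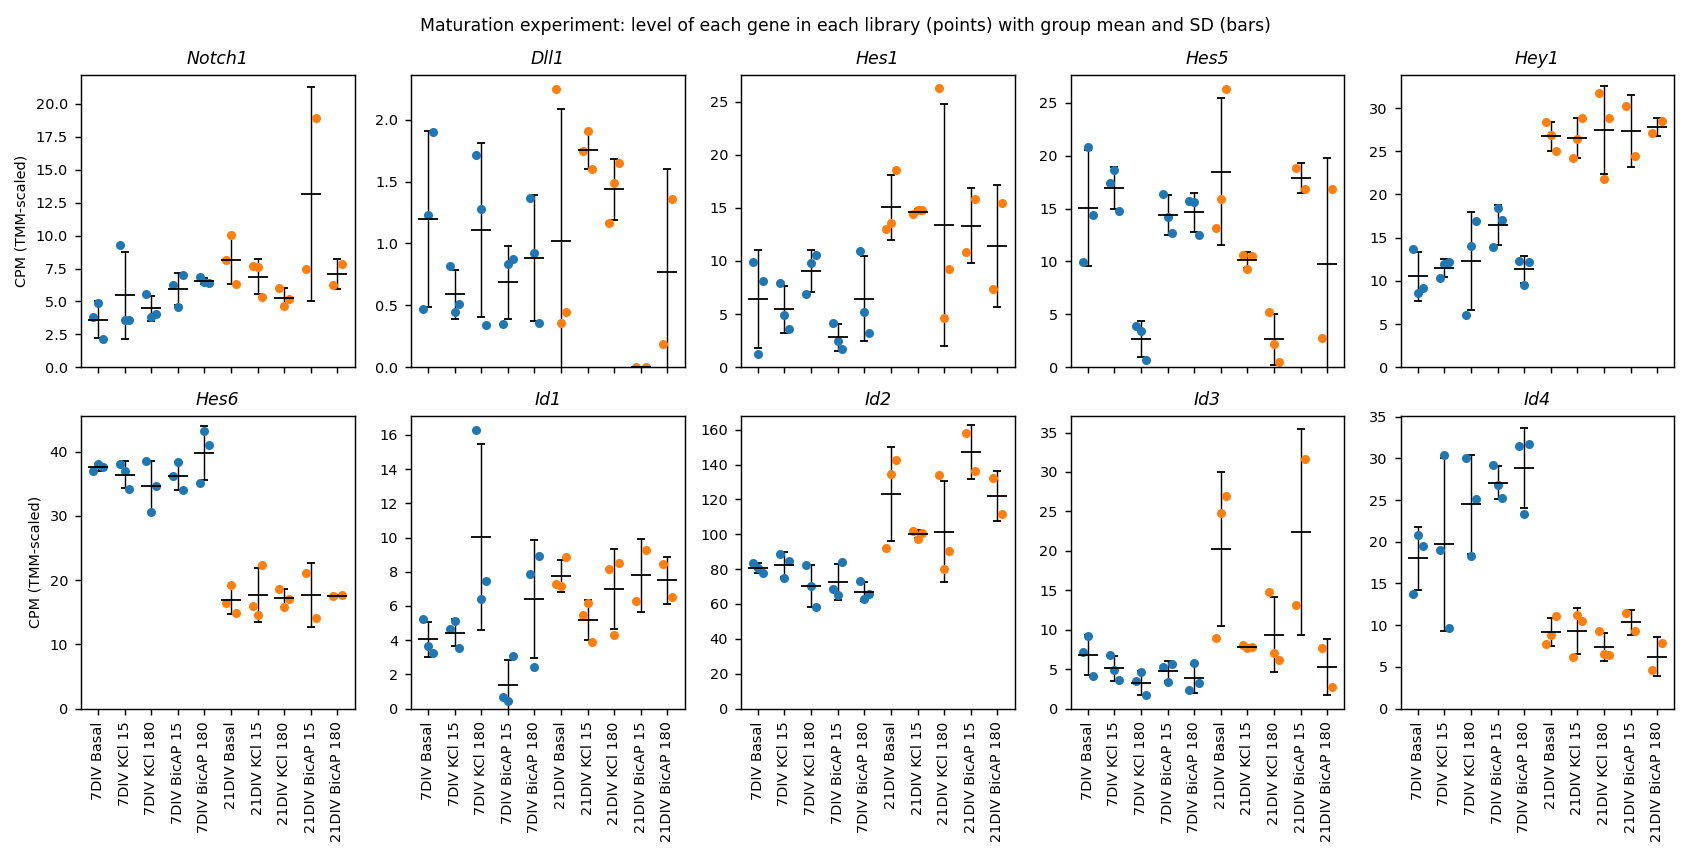
Level of each of the 10 genes (TMM-scaled CPM, linear axes from 0) in every library of the maturation experiment, by group; points are libraries, the bars give the group mean and SD (n = 2 or 3), blue is 7DIV and orange 21DIV. Hey1 and Hes6 differ between stages with no overlap, and Hes5 is at 0.472 to 5.26 CPM after 180 min of KCl at both stages.

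At 7DIV, Hes5 was low with KCl at 180 min, and none of the other members was called with any stimulus. Hes5 stood at 9.95, 20.9 and 14.4 CPM in the basal libraries, at 17.4, 18.6 and 14.8 CPM after 15 min of KCl, and at 3.86, 3.40 and 0.679 CPM after 180 min. All 3 libraries of 180 min were below all 3 basal ones. The log2 fold change at 180 min was -2.53 (SE 0.59), a level 5.8-fold lower. This is one of the known values and no test is given. Beside it 1 of 11 astrocyte markers was called higher and 0 oligodendrocyte or progenitor markers were called. With BicAP the level stayed at 12.6 to 16.4 CPM at 15 min and 12.5 to 15.7 CPM at 180 min, within the range of the basal libraries. Of all genes tested, 1.98% were called with KCl at 180 min, and 0% with KCl at 15 min, BicAP at 15 min and BicAP at 180 min. For these last 3 comparisons edgeR's quasi-likelihood test called 0 members. At an unadjusted p under 0.05 there were 0, 2 (Hey1 and Id1) and 2 (Notch1 and Id4), and the likelihood ratio test and DESeq2 called 0 in each. Among all 11741 genes tested, 659, 793 and 701 were under that unadjusted p. Of 4 immediate early genes (Fos, Arc, Npas4 and Egr1), 3 were called higher with KCl at 180 min and 0 with BicAP at either time at this stage. Id1, which had 16.3, 6.38 and 7.46 CPM after 180 min of KCl against 3.25 to 5.21 CPM in basal, did not overlap with it but missed the threshold (log2 fold change 1.32, SE 0.49, edgeR adjusted p = 0.205).

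At 21DIV of the maturation experiment, Hes5 was again low with KCl at 180 min. Among the other members only Id3 was called, with KCl at 15 min and with BicAP at 180 min. Hes5 went from 13.1, 15.9 and 26.3 CPM in basal to 10.6, 9.30 and 10.5 CPM after 15 min and to 5.26, 2.24 and 0.472 CPM after 180 min of KCl. Every library of either time was below every basal library. At 180 min the log2 fold change was -2.76 (SE 0.49), a level 6.75-fold lower. This value too is given with no test. Of the markers, 0 of 11 of astrocytes, 2 of 8 of oligodendrocytes, 2 of 9 of progenitors and 1 of 8 of neurons were called lower there. At 15 min the log2 fold change of Hes5 was -0.87 (SE 0.42, edgeR adjusted p = 0.223). The difference of the log2 fold changes at 180 min, 21DIV minus 7DIV, was -0.22 (SE 0.81). Of all genes tested, 6.23% were called with KCl at 15 min, 4.88% at 180 min, 0.0511% with BicAP at 15 min and 14.2% with BicAP at 180 min.

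Id3 was at 8.99, 24.9 and 26.9 CPM in basal 21DIV and at 7.99, 7.63 and 7.83 CPM after 15 min of KCl. All treated libraries were below all basal ones, and the log2 fold change was -1.37 (SE 0.41, edgeR adjusted p = 0.0353). The call was lost when any of 5 of the 6 libraries was left out, with edgeR adjusted p values from 0.0763 to 0.2; leaving out 21DIV basal replicate 1, the library at 8.99 CPM, kept it. After 180 min of KCl it was at 14.8, 7.08 and 6.14 CPM (log2 fold change -1.11, SE 0.41, edgeR adjusted p = 0.109); without replicate 1 of that group the value was -1.62 (edgeR adjusted p = 0.027). After 180 min of BicAP it was at 7.74 and 2.71 CPM, again below every basal library, with a log2 fold change of -1.91 (SE 0.50, edgeR adjusted p = 0.00926); without replicate 2 of that group it was -2.89 (edgeR adjusted p = 0.0174) and without replicate 3 it was -1.40 (edgeR adjusted p = 0.141). The codes of both libraries begin with E, a letter that no other group carries, so this letter and the treatment cannot be told apart. After 15 min of BicAP it was at 13.1 and 31.6 CPM and no member was called by edgeR's quasi-likelihood test, by the likelihood ratio test or by DESeq2, with 0 at an unadjusted p under 0.05. Among all 11741 genes tested, 622 were under that unadjusted p.

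The 2 libraries of BicAP at 180 min disagreed on Hes5, at 2.76 CPM in replicate 2 and 16.8 CPM in replicate 3. Their astrocyte sums were 1773 CPM in replicate 2 and 3417 CPM in replicate 3, while Id3 was at 7.74 and 2.71 CPM. The part of astrocytes in the disagreement on Hes5 was not tested. The fold change of Hes5 over both libraries was -0.98 on the log2 scale (SE 0.50, edgeR adjusted p = 0.185). Without replicate 3 it was -2.75 (edgeR adjusted p = 0.00651) and the difference between stages was -2.73 (edgeR adjusted p = 0.0387), but this leaves 1 library in the group, which is then assumed to vary like the other groups. With all libraries, edgeR's quasi-likelihood test called 0 members in each of the 4 interactions of stage and stimulus, where 2.01% (KCl 15 min), 0.775% (KCl 180 min), 0.00852% (BicAP 15 min) and 4.94% (BicAP 180 min) of all genes were. At an unadjusted p under 0.05 there were 0, 1 (Id1), 0 and 1 (Id4), and the likelihood ratio test and DESeq2 called 0. Among all 11741 genes tested, 1831, 1683, 587 and 2331 were under that unadjusted p. The interaction of Id4 with BicAP at 180 min was -1.28 (SE 0.48, edgeR adjusted p = 0.122), and that of Id1 with KCl at 180 min was -1.48 (SE 0.65, edgeR adjusted p = 0.29). With BicAP at 180 min, 3 of 11 astrocyte, 4 of 8 oligodendrocyte and 7 of 9 progenitor markers were called lower, with 3 of 8 neuronal ones, whereas 1 oligodendrocyte marker and 2 of 3 microglial markers tested were called higher; the astrocyte sum was 1773 to 3417 CPM there against 4667 to 5689 CPM in basal, and the part of these cell types in the level of Id3 was not tested. With KCl at 15 min 1 astrocyte marker was called higher and 0 lower. There 1 of 9 progenitor, 1 of 8 oligodendrocyte and 1 of 8 neuronal markers were called lower.

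**Figure D2:**
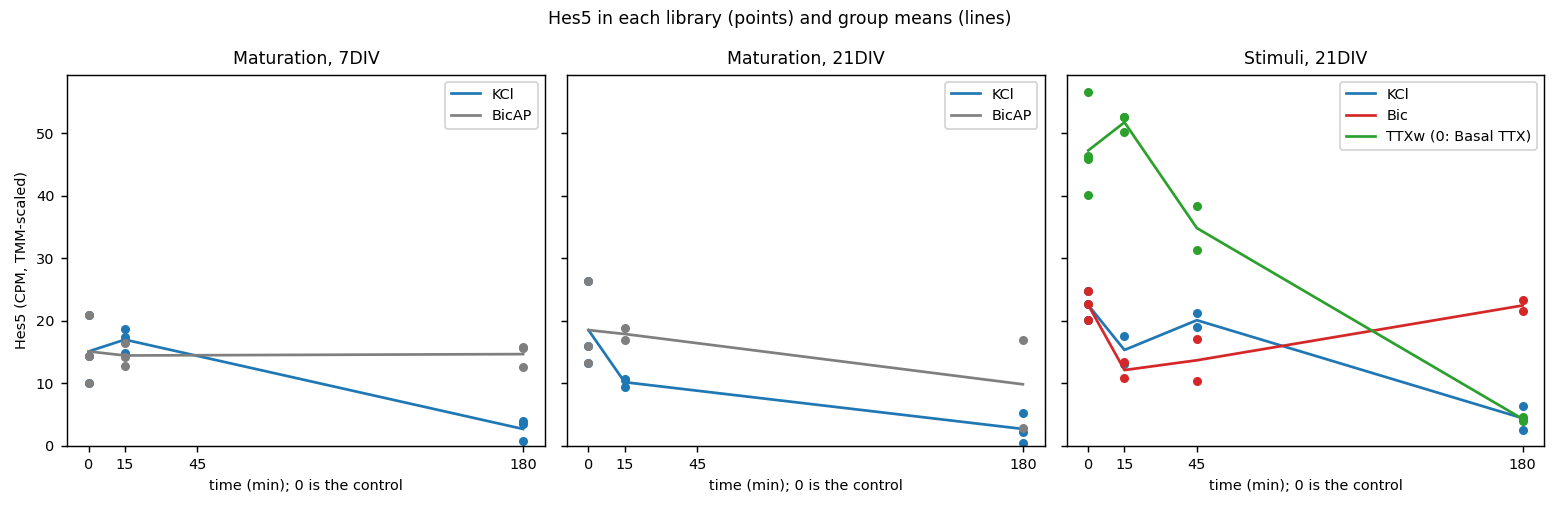
Level of Hes5 (TMM-scaled CPM) against time of stimulation in min, 1 point per library and lines through group means, at 7DIV and at 21DIV for the maturation experiment and for the stimuli experiment; time 0 is the basal group, or basal TTX for TTXw. Hes5 is low at 180 min of KCl in all 3 panels and of TTXw, and at its basal level at 180 min of Bic.

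The stimuli experiment holds other libraries than those behind the known values. Here too Hes5 fell with KCl at 180 min, Id2 rose within 15 min of either KCl or Bic, and Bic at 45 min called 5 of the 9 members, beside 7.48% of all genes; of these 5, Id2 alone passed with the letter of the library code as a term and when any single library was left out. Hes5 stood at 22.6, 20.1 and 24.6 CPM in the 3 basal libraries. With KCl it was at 17.5 and 13.1 CPM after 15 min, 18.9 and 21.2 CPM after 45 min, and 2.42 and 6.32 CPM after 180 min, the last from 3 and 11 counts. At 180 min both libraries were below every basal one, and the fall was 2.26 on the log2 scale (log2 fold change -2.26, SE 0.34, edgeR adjusted p = 6.64e-05), a level 4.78-fold lower and rank 5 of the 31 genes called lower. The call passed in all 15 alternative settings, including the one with the letter of the library code as a term (-2.19, edgeR adjusted p = 0.000376). At 180 min of KCl 0.765% of all genes were called, as at 45 min (0.765%); at 15 min it was 7.22%. The astrocyte sum was 3632 and 3649 CPM in the libraries of KCl at 180 min against 2639 to 3243 CPM in basal, with 0 of 11 markers called; 2 of 8 oligodendrocyte markers were called lower, and their part in the result was not tested.

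With Bic, Hes5 was at 13.3 and 10.8 CPM after 15 min, 17.03 and 10.25 CPM after 45 min and 23.2 and 21.6 CPM after 180 min. The 15 and 45 min libraries were below every basal library and the 180 min libraries were within the basal range. The change was called at 45 min (log2 fold change -0.75, SE 0.24, edgeR adjusted p = 0.0384) and not at 15 min (-0.85, SE 0.26, edgeR adjusted p = 0.0531) or 180 min (-0.01, SE 0.21). The call at 45 min was lost in 10 of 15 alternative settings: with thinned counts the value was -0.12 (edgeR adjusted p = 0.897), without Bic 45 min replicate 2 the value was -0.37 (edgeR adjusted p = 0.605), and without basal replicate 1 or 5 the edgeR adjusted p was 0.106 and 0.121. The letter of the library code as a term was another of the 10 settings. The likelihood ratio test called Hes5 at 15 min as well. In the direct comparison at 180 min, with no shared control, Hes5 was higher with Bic than with KCl by 2.25 on the log2 scale (SE 0.35, edgeR adjusted p = 0.000145), a level 4.76-fold higher, where 0.732% of all genes were called. At 45 min the difference, Bic minus KCl, was -0.58 (SE 0.26, edgeR adjusted p = 0.456) and at 15 min -0.28 (SE 0.29). Of the 4 immediate early genes, 4 were called higher with Bic at 180 min and 3 with KCl at 180 min.

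Id2 was the member that rose with both stimuli at the earliest time. It stood at 78.0, 87.5 and 66.4 CPM in basal, at 137 and 161 CPM after 15 min of KCl and at 139.4 and 150.4 CPM after 15 min of Bic. Both stimulated groups were above every basal library. The log2 fold change was 0.95 with KCl (SE 0.17, edgeR adjusted p = 0.000151) and 0.90 with Bic (SE 0.17, edgeR adjusted p = 0.00101); of all genes tested 3.41% were called with Bic at 15 min. After 45 min Id2 was at 104 ± 11.5 CPM (SD, n = 2) with KCl (log2 fold change 0.43, SE 0.17, edgeR adjusted p = 0.311) and at 124.5 and 195.7 CPM with Bic (1.06, SE 0.17, edgeR adjusted p = 2.56e-05), where 7.48% of all genes were called. After 180 min it was at 108 and 137 CPM with KCl (0.67, SE 0.18, edgeR adjusted p = 0.0559) and at 115.2 and 129.9 CPM with Bic (0.66, SE 0.17, edgeR adjusted p = 0.0361), where 0.765% were called. The likelihood ratio test and DESeq2 called Id2 with KCl at 180 min as well. The calls at 15 min and at 45 min of Bic passed in all 15 alternatives. That of Bic at 180 min was lost in 8 of 15, among them without basal replicate 1 or 5 (edgeR adjusted p = 0.0877 and 0.236) and without Bic 180 min replicate 2 or 3 (0.0832 and 0.405). The call of Id2 with Bic at 180 min was also lost with the letter of the library code as a term. In the maturation experiment Id2 gave no call with KCl at 15 min, where it was at 101.7, 97.5 and 100.9 CPM against 92.0 to 142.6 CPM in basal 21DIV.

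Bic at 45 min also called Id3, Id4 and Hes6. Id3 rose from 2.58, 2.98 and 3.03 CPM, which are 8 or 9 counts, to 7.86 and 7.04 CPM (log2 fold change 1.37, SE 0.39, edgeR adjusted p = 0.0215). Id4 rose from 11.5, 14.52 and 15.2 CPM to 31.9 and 20.2 CPM (0.91, SE 0.27, edgeR adjusted p = 0.027). Hes6 fell from 20.1, 23.8 and 19.0 CPM to 10.05 and 8.97 CPM (log2 fold change -1.14, SE 0.32, edgeR adjusted p = 0.016). In each of them the 2 treated libraries were outside the range of the 3 basal ones. The share of all genes for which this holds was not computed. All 3 calls were lost with the letter of the library code as a term (edgeR adjusted p = 0.213 for Id3, 0.287 for Id4 and 0.172 for Hes6), and each was lost when some single library was left out. For Id3 these were basal replicate 1 or 5 (edgeR adjusted p = 0.0699 and 0.0516) and Bic 45 min replicate 1 or 2 (0.0943 and 0.102). For Id4 they were basal replicate 1 (edgeR adjusted p = 0.105) and Bic 45 min replicate 1, without which the log2 fold change was 0.61 (edgeR adjusted p = 0.332). For Hes6 they were basal replicate 2 (edgeR adjusted p = 0.0609) and Bic 45 min replicate 1 or 2 (0.0835 and 0.215). Beside these, 6 of 11 astrocyte, 4 of 8 oligodendrocyte, 5 of 9 progenitor and 3 of 8 neuronal markers were called higher with Bic at 45 min and 0 of any of these lists lower; the astrocyte sum was 5215 and 5916 CPM. Their part in the changes of Id2, Id3 and Id4 was not tested. With KCl at 15 min, where Id2 rose, 4 of 11 astrocyte, 4 of 8 oligodendrocyte, 5 of 9 progenitor and 2 of 8 neuronal markers were called higher, and with Bic at 15 min 2 of 11, 2 of 8, 0 of 9 and 2 of 8.

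The remaining members gave no call with KCl or Bic. Hes1 was at 4.85 and 8.61 CPM after 180 min of KCl, from 6 and 15 counts, below its basal 11.5, 17.1 and 14.0 CPM (log2 fold change -1.01, SE 0.37, edgeR adjusted p = 0.22). Hey1 lay between 16.6 and 26.5 CPM and Notch1 between 3.15 and 10.9 CPM over all basal, KCl and Bic libraries, and Id1 between 3.34 and 15.7 CPM. Dll1 had at most 6 counts in any of them. At 45 min of KCl edgeR's quasi-likelihood test called 0 members, as did the likelihood ratio test and DESeq2, with 1 at an unadjusted p under 0.05 (Id2). Among all 12022 genes tested, 1342 were under that unadjusted p. Bic against KCl called 0 members at 15 min and 0 at 45 min, where 0% and 0.682% of all genes were called. There 0 and 5 members (Hes1, Hes5, Hes6, Id1 and Id2) had an unadjusted p under 0.05 by edgeR, as did 552 and 1139 of the 12022 genes tested. The other tools called 0 members at both times. Without Bic 45 min replicate 1, Id2 was called higher with Bic than with KCl at 45 min (0.93, edgeR adjusted p = 0.00807), from 1 Bic library that is assumed to vary like the other groups, as in every case where a library of a group of 2 was left out.

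**Figure D3:**
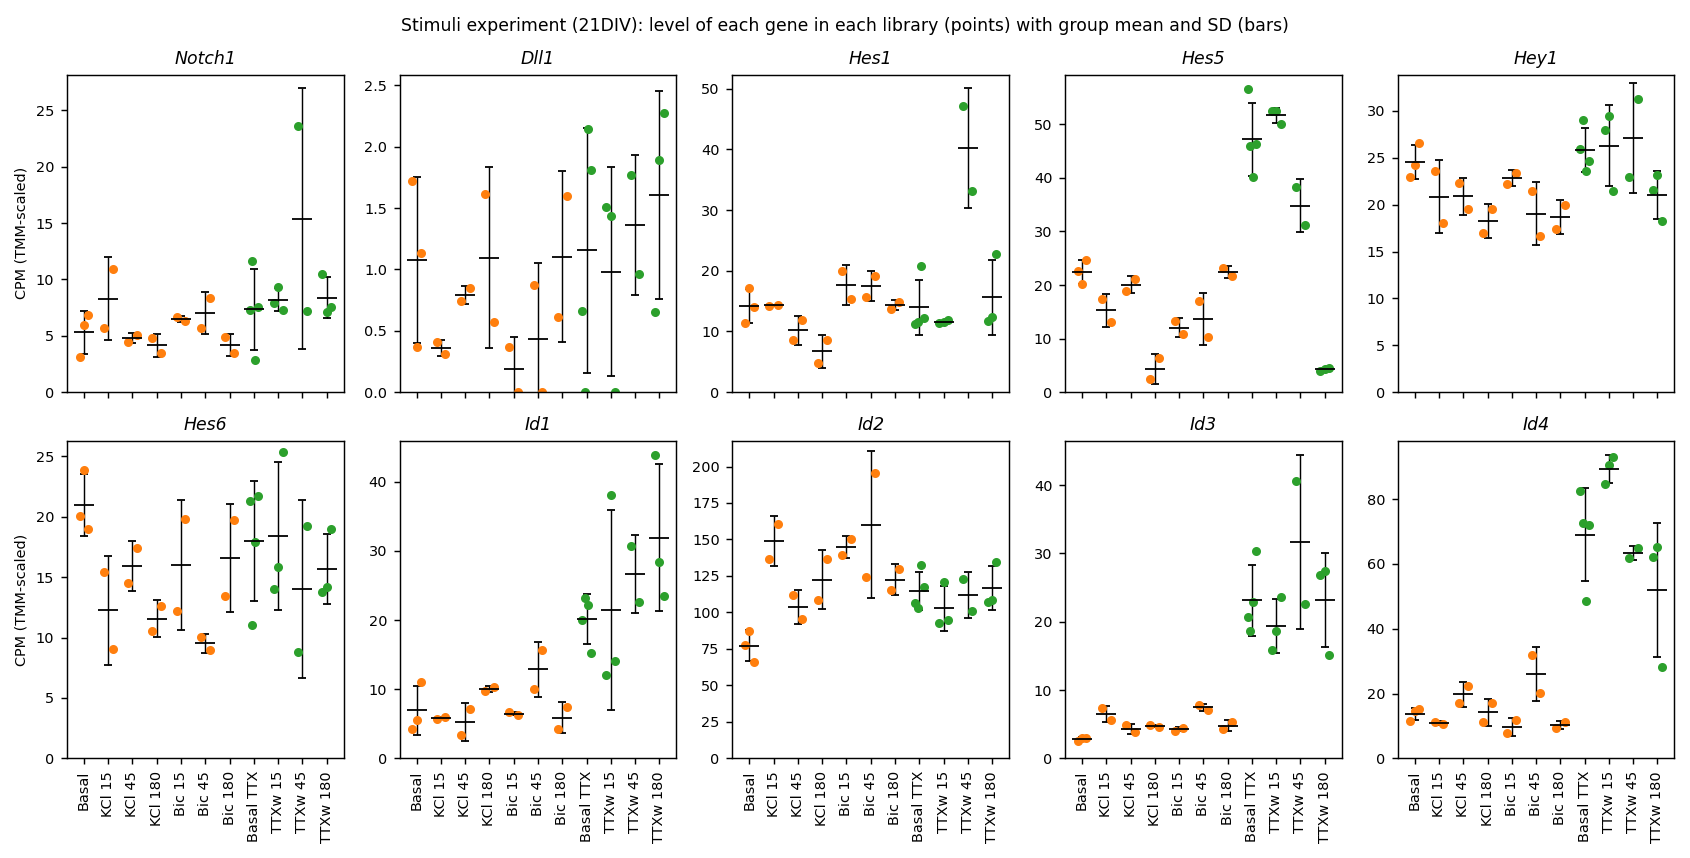
Level of each of the 10 genes (TMM-scaled CPM, linear axes from 0) in every library of the stimuli experiment, by group; points are libraries, the bars give the group mean and SD (n = 2 to 4), orange is never silenced and green silenced with TTX or released from it. Id1, Id3 and Id4 are higher in basal TTX than in basal with no overlap, and Hes5 is at 3.93 to 4.56 CPM after 180 min of TTXw.

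After 48 h of silencing, 4 of the 9 genes were higher in basal TTX than in basal and 0 were lower, where 21.6% of all genes were called. Id3 had the largest difference: 20.6, 18.6, 22.9 and 30.4 CPM in the 4 basal TTX libraries against 2.58, 2.98 and 3.03 CPM in basal. The log2 fold change was 3.03 (SE 0.30, edgeR adjusted p = 2.56e-10), a level 8.16-fold higher and rank 24 of the 1293 genes called higher. Id4 was at 82.5, 72.6, 48.7 and 72.0 CPM against 11.5, 14.52 and 15.2 CPM (2.34, SE 0.22, edgeR adjusted p = 6.96e-11), 5.08-fold higher. Id1 was at 19.96, 23.2, 22.2 and 15.2 CPM against 4.30, 5.59 and 11 CPM (1.54, SE 0.34, edgeR adjusted p = 0.000549). Hes5 was at 56.5, 45.9, 40.1 and 46.3 CPM against 22.6, 20.1 and 24.6 CPM (1.07, SE 0.18, edgeR adjusted p = 8.07e-06). In none of the 4 did the groups overlap, and all 4 calls passed in all 17 alternatives. Id2, at 103.4 to 132.4 CPM against 66.4 to 87.5 CPM, did not overlap either and had an edgeR adjusted p of 0.00272, but its change of 0.57 on the log2 scale was under 1.5-fold.

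The receptor and the other Notch targets differed less between basal TTX and basal. Notch1 was at 7.32, 11.6, 2.86 and 7.60 CPM in basal TTX (log2 fold change 0.53, SE 0.39), Hes1 at 11.3, 11.6, 20.8 and 12.3 CPM (-0.04, SE 0.25), Hey1 at 23.6 to 29.05 CPM (0.07, SE 0.18) and Hes6 at 11.04 to 21.7 CPM (-0.20, SE 0.25), each overlapping with basal. In the same comparison all 11 astrocyte markers were called higher (median log2 fold change 1.60), with 6 of 8 oligodendrocyte and 5 of 9 progenitor markers, whereas 1 of 8 neuronal markers was called and was lower; the 4 immediate early genes were all lower. Their part in the rise of Hes5, Id1, Id3 and Id4 was not tested. The log2 ratio of Xist to 4 Y-linked genes was 1.29 to 2.21 in the 12 libraries kept in TTX or released from it and 0.454 to 1.23 in the 15 never in TTX, with no overlap. The labels do not say whether silenced and never silenced libraries came from the same cultures, so silencing and culture cannot be told apart in this comparison.

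**Figure D4:**
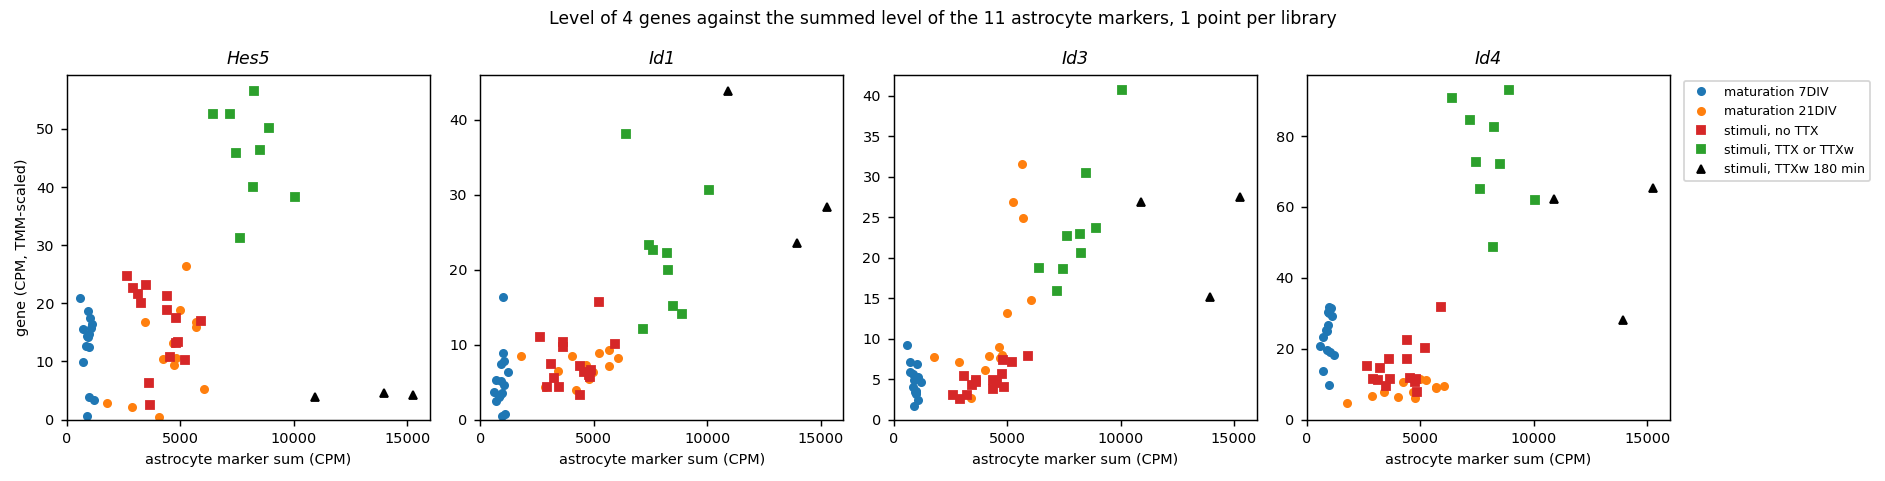
Level of Hes5, Id1, Id3 and Id4 (TMM-scaled CPM) against the summed level of the 11 astrocyte markers (CPM), 1 point per library, over both experiments, which were scaled separately and are to be read each on its own. Libraries of basal TTX and of TTXw at 15 and 45 min lie at higher sums than the never silenced libraries of the stimuli experiment. For Hes5, Id3 and Id4 they also lie at higher levels than each of these, and for Id1 the levels overlap. The 3 libraries of TTXw at 180 min have sums of 10910 to 15260 CPM with Hes5 at 3.93 to 4.56 CPM.

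Release from TTX was followed by the largest fall of Hes5. It was at 52.5, 52.5 and 50.1 CPM after 15 min, 38.3 and 31.3 CPM after 45 min and 3.93, 4.26 and 4.56 CPM after 180 min, from 56.5, 45.9, 40.1 and 46.3 CPM in basal TTX. The libraries of 15 min lay within the range of the controls and those of 45 min were just below it. Those of 180 min, with 6 to 9 counts of Hes5 each, were far below. At 180 min the log2 fold change was -3.46 (SE 0.26, edgeR adjusted p = 7.87e-13), a level 11-fold lower and rank 4 of the 804 genes called lower, and 14% of all genes were called. It passed in all 17 alternatives, with values from -3.52 to -3.37. At 45 min it was -0.45 (SE 0.20, edgeR adjusted p = 0.442) and at 15 min 0.13 (SE 0.17). Between 180 min of TTXw and basal TTX, 5 of 11 astrocyte, 5 of 8 oligodendrocyte and 7 of 9 progenitor markers were called higher, 0 of these lower, and 4 of 8 neuronal markers lower; the astrocyte sum was 10910 to 15260 CPM, above the 7446 to 8497 CPM of the controls. The neuronal sum was 2668 to 3197 CPM against 4484 to 4973 CPM. The parts of these cell types and of the medium exchange in the fall of Hes5 were not tested. The paper states that control neurons underwent the same washes, and that results are set against neurons silenced with TTX for 48 h. It does not say whether the washed controls are that group.

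Hes1 rose with TTXw at 45 min. It was at 47.1 and 33.2 CPM, from 80 and 69 counts, against 11.3, 11.6, 20.8 and 12.3 CPM in basal TTX, 11.3 to 11.8 CPM after 15 min and 11.8, 12.3 and 22.8 CPM after 180 min. Both 45 min libraries were above all the others. The log2 fold change was 1.54 (SE 0.25, edgeR adjusted p = 0.000323), a level 2.9-fold higher, where 0.383% of all genes were called. Without TTXw 45 min replicate 1 it was 1.27 (edgeR adjusted p = 0.138). That library also had the highest Notch1 of the experiment, 23.6 CPM against 7.22 CPM in replicate 3 of the group (log2 fold change of Notch1 0.99, SE 0.40, edgeR adjusted p = 0.378). Id1, Id3 and Id4 gave no call after release: Id1 was at 23.5 to 43.8 CPM at 180 min (0.69, SE 0.30, edgeR adjusted p = 0.0983), Id3 at 15.2 to 27.5 CPM (0.00, SE 0.24) and Id4 at 62.2, 65.3 and 28.1 CPM (-0.39, SE 0.20, edgeR adjusted p = 0.175). At 15 min edgeR's quasi-likelihood test, the likelihood ratio test and DESeq2 called 0 members, with 0 at an unadjusted p under 0.05, where 0% of all genes were called. Among all 12022 genes tested, 757 were under that unadjusted p. Comparisons with TTXw at the 3 times share the same 4 control libraries, and those with KCl and Bic the same 3.

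**Figure D5:**
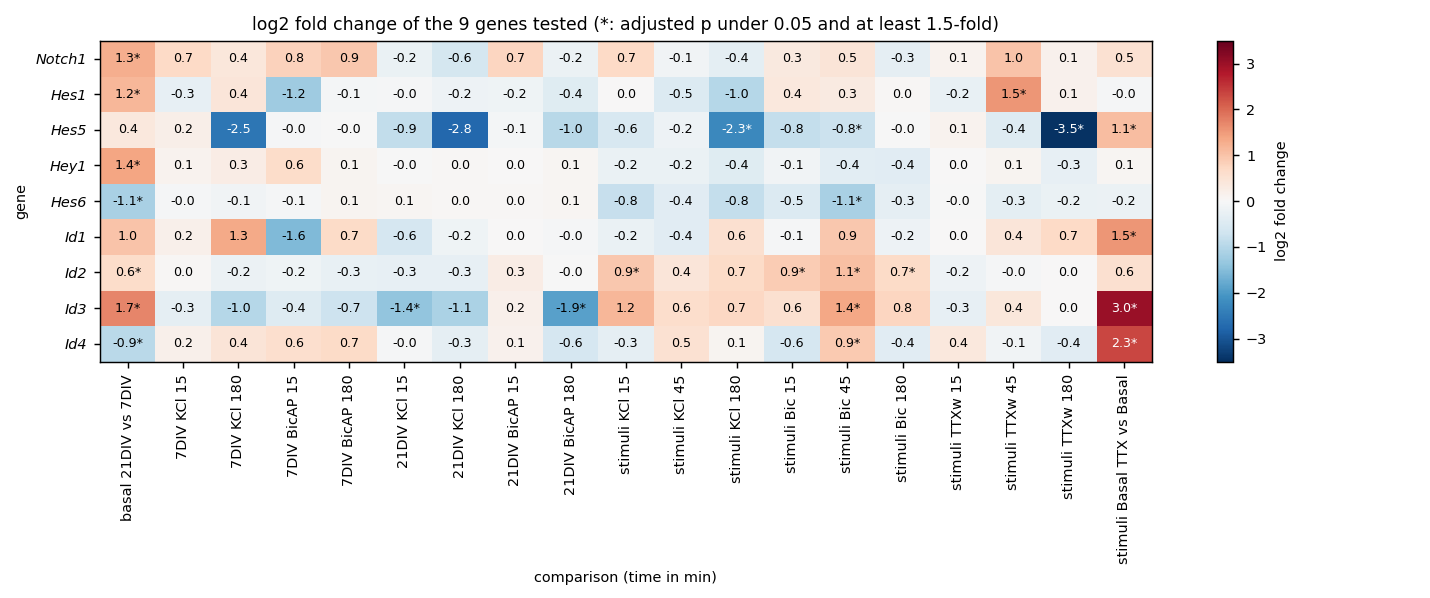
Log2 fold change of the 9 genes tested (rows) in the comparisons of a group with its control (columns; red higher, blue lower), with the value in each cell and an asterisk where edgeR called it; no asterisk is drawn for the 2 falls of Hes5 with KCl that were known when the genes were chosen. The darkest cells are the fall of Hes5 with TTXw at 180 min (-3.46) and the higher Id3 in basal TTX (3.03).

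Over the stimuli experiment the order of the group means of Hes5 ran from 4.25 ± 0.315 CPM (SD, n = 3) at TTXw 180 min and 4.37 ± 2.75 CPM (n = 2) at KCl 180 min, which overlap, through 12.1 ± 1.79 CPM (n = 2) at Bic 15 min and 22.4 ± 1.14 CPM (n = 2) at Bic 180 min, which overlaps with basal at 22.5 ± 2.27 CPM (n = 3), to 47.2 ± 6.84 CPM (n = 4) in basal TTX and 51.7 ± 1.38 CPM (n = 3) at TTXw 15 min, which overlap as well. For Id4 the lowest mean was at Bic 15 min (9.75 ± 2.77 CPM, n = 2) and the highest at TTXw 15 min (89.4 ± 4.27 CPM, n = 3). For Id3 they were basal (2.86 ± 0.248 CPM, n = 3) and TTXw 45 min (31.6 ± 12.8 CPM, n = 2).

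Of 45 other genes of the Notch pathway (receptors, ligands, proteases, nuclear cofactors and other targets), 32 were tested between stages and 7 were called higher and 5 lower at 21DIV (median log2 fold change 0.23), where 33.1% of all genes were called; the largest were Maml2, a coactivator (1.95, SE 0.40), Hes7, a target gene (-1.56, SE 0.48), and Neurl1a, which acts on the ligand (1.56, SE 0.26). With KCl at 180 min, where Hes5 was low, 1 of 35 was called higher at 7DIV (Sox9, 1.10), and 0 at 21DIV and 0 of 37 in the stimuli experiment. Sox9 is also on the astrocyte list, where it was the 1 marker called higher at 7DIV. With TTXw at 180 min, where 14% of all genes were called, 1 of 37 was, Rbpj itself, higher by 0.69 (SE 0.18, edgeR adjusted p = 0.00457). At the earlier times in the stimuli experiment 3 of 37 were called with KCl at 15 min (0 higher and 3 lower), 3 with Bic at 15 min (1 higher and 2 lower) and 3 with Bic at 45 min (1 higher and 2 lower), where 7.22%, 3.41% and 7.48% of all genes were; with BicAP at 180 min 1 of 35 was higher and 1 lower. Between basal TTX and basal, where 21.6% of all genes were called, 8 were higher and 4 lower, led by Lfng, which modifies the receptor (2.15, SE 0.52), Hes7 (-1.98, SE 0.51) and the protease Adam17 (1.57, SE 0.29).

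Of the 34 genes of the BMP and TGF-beta pathway, 25 were tested with stimulation. In the stimuli experiment KCl called 4 of the 25 higher and 1 lower at 15 min, 2 higher at 45 min and 1 higher at 180 min. Bic called 2, 4 and 2 higher at these times and 0 lower, and TTXw at 180 min 3 higher and 1 lower. Of all genes, 7.22%, 0.765% and 0.765% were called with KCl, 3.41%, 7.48% and 0.765% with Bic and 14% with TTXw at 180 min. Bmp2, a ligand, was called higher in the stimuli experiment with KCl at 15 min (1.55, SE 0.22), 45 min (1.45, SE 0.23) and 180 min (1.01, SE 0.26), with Bic at 15 min (1.70, SE 0.23), 45 min (2.07, SE 0.22) and 180 min (1.64, SE 0.22), and with TTXw at 180 min (1.09, SE 0.24). Smad7, an inhibitor of the pathway, was called higher with KCl at 15 min (2.12, SE 0.36) and 45 min (1.53, SE 0.39), and with Bic at 45 min (2.21, SE 0.36) and 180 min (1.66, SE 0.37). Of the ID genes, Id2 was called higher with KCl at 15 min and with Bic at 15, 45 and 180 min. Id3 and Id4 were called higher with Bic at 45 min. With the letter of the library code as a term these calls and that of Id2 with Bic at 180 min were lost. Id1 was called in none of these comparisons. Between stages 2 of 19 tested were called higher and 6 lower at 21DIV, beside 33.1% of all genes. In the maturation experiment KCl at 180 min called 1 of 25 lower at 7DIV, beside 1.98%. At its 21DIV stage KCl called 1 higher and 1 lower at 15 min and 1 higher at 180 min, beside 6.23% and 4.88%. BicAP at 180 min called 2 higher and 1 lower there, beside 14.2%. Id3 was called lower there with KCl at 15 min (-1.37) and with BicAP at 180 min (-1.91). Between basal TTX and basal 8 of 25 were called higher and 0 lower, beside 21.6% of all genes called in either direction, the largest being the receptor Bmpr1b (1.86, SE 0.32).

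Of the 12 bHLH partners and rivals of the members, 10 were tested in the maturation libraries and 11 in the stimuli libraries. Between stages 2 were called higher and 4 lower at 21DIV, where 33.1% of all genes were called. At 21DIV of the maturation experiment 0 were called higher, and 4, 3 and 4 lower with KCl at 15 min, KCl at 180 min and BicAP at 180 min. The shares of all genes there were 6.23%, 4.88% and 14.2%. In the stimuli experiment KCl called 2 higher at 15 min, 0 at 45 min and 1 lower at 180 min. Bic called 1, 2 and 0 higher at 15, 45 and 180 min and 0 lower. The shares of all genes were 7.22%, 0.765% and 0.765% with KCl and 3.41%, 7.48% and 0.765% with Bic. Between basal TTX and basal 7 were called higher and 1 lower, beside 21.6% of all genes. With TTXw at 180 min 1 was higher and 2 lower, beside 14%. Olig1, a factor of the oligodendrocyte lineage, was called higher at 21DIV than at 7DIV (2.27, SE 0.15) and lower at 21DIV with KCl at 180 min (-1.35, SE 0.19) and BicAP at 180 min (-1.78, SE 0.22). Neurod6, a factor of excitatory neurons, was lower in basal TTX than in basal (-1.56, SE 0.13) and lower again with TTXw at 180 min (-0.95, SE 0.14), and the E protein Tcf3 was higher in basal TTX (1.42, SE 0.31).

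The pattern of each gene over the 21 groups was compared, as a description, with those of 8737 genes measured in both experiments, after centring within stage, experiment and TTX treatment; each library belongs to 1 group, and groups of an experiment share its processing and scaling. The nearest to Hes5 were 1600012H06Rik (Pearson r = 0.883) and St3gal2 (0.876). Id3 was most like Kcnh3 (0.942) and Chd3 (0.927), and Hes6 most like Ubl4a (0.872) and Hgsnat (0.808). The highest values were 0.840 for Id2 (Rbm4b), 0.771 for Hes1 (Zc3h14, then Eif2b2 at 0.752), 0.770 for Hey1 (Zfp322a, then Klhl26 at 0.769) and 0.705 for Id4 (Pdik1l, then Klf12 at 0.675). For Notch1 and Id1, which were lower in level, they were C1galt1 (0.847) and Fam120a (0.745), and Mtdh (0.794) and Frmpd1 (0.776). No member was among the 2 nearest genes of another; between members the lowest value was that of Hey1 with Id1 (-0.666).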

How the data were processed

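Per the labels and the methods, CEL-Seq2 3′ libraries were aligned with STAR to mm10 by the authors, who deposited raw counts per RefSeq transcript made with ESAT, 1 table per experiment; whether molecular identifiers were collapsed is not given in the sources used here. Every column in the tables was matched to a sample (0 left over). Transcripts were matched to genes by RefSeq accession without its version (GRCm38.p6): 78895 of 97700 in the maturation table and 78219 of 96722 in the stimuli table; transcripts without a match, with 18.5% and 19.3% of all counts, were not used. The transcript with the most counts stood for its gene. Genes above 5 CPM in at least 2 libraries were fitted with edgeR 4.0.16 (R 4.3.3), with TMM factors and 1 coefficient per group: all libraries of an experiment together (11741 and 12022 genes), except the comparison of stages (6 basal libraries, 10505 genes). The SE is the log2 fold change divided by the root of the F statistic. Interactions were called by adjusted p alone. Fits were tested on simulated data. No 2 replicates agreed within sampling noise (lowest chi-square per degree of freedom 2.17 over 48 pairs).

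The members, the gene lists and the tests were chosen with earlier results of these data known. Of the pathway lists, up to 3 called genes of the largest change per comparison may be named; of each member, the 2 genes of the most similar pattern among those with a mean log2 CPM (prior count 2) of at least 3 in both experiments. Some genes that this rule names are not reported here. Alternatives were the likelihood ratio test, DESeq2 1.42.0 without independent filtering, RLE factors, no filter or filterByExpr, thinned counts, other samples in the fit, the replicate number as a block, counts summed over transcripts, all times in 1 test and leaving out each replicate. The letter of the library code as a term was added after the data were seen. Promoter windows and coordinates are from RefSeq; motifs were searched on both strands. Figures were drawn with matplotlib 3.10.9.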

Additional observations from a re-analysis of the deposited data

Results flagged for a closer look

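In the group of 4 basal TTX libraries, the highest Hes1, 20.8 CPM in replicate 3, stood apart from the others by Dixon's test (the only group of 4, so 10 genes were looked at, and chance flags about 1 in 20 groups). Hes5 differed between stimuli: the level at 180 min was 2.25 higher on the log2 scale with Bic than with KCl, by edgeR's quasi-likelihood test.

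With KCl at 15 min the values of Id3 lay on opposite sides of basal in 21DIV cultures of the 2 experiments, with a log2 fold change of -1.37 in the maturation experiment (called) but 1.15 in that of the stimuli (not called), every stimulated library being below its controls in the first and above them in the other; this difference was not tested. Id4 lay on opposite sides of basal at different times of a stimulus in the stimuli experiment: with KCl at -0.31 after 15 min and 0.53 after 45 min, and with Bic at 0.91 after 45 min and -0.39 after 180 min, on the log2 scale. These differences between times were not tested either.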

How the results depend on the processing

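No member's call changed direction in any alternative. Counts of calls within 1.5 times of those reported were found in 174 of 188 comparisons of a count with an alternative. When a replicate was left out, only comparisons that use its group were fitted again. The other calls in a count were kept as reported, so part of this agreement is built in. The counts include the known falls of Hes5 with KCl at 180 min (1 at 7DIV and 1 at 21DIV), for which they describe the fits and test nothing. The exceptions were the 7DIV stimulation (0 in place of 1 with the replicate block), KCl and Bic in the stimuli experiment (in place of 9, 5 with thinned counts, 5 with counts summed over transcripts and 4 with the letter of the library code as a term, the 4 being Hes5 with KCl at 180 min and Id2 with KCl at 15 min and Bic at 15 and 45 min), and basal 21DIV against 7DIV (4 in place of 7 with summed counts). Leaving out 1 replicate gave 0 to 1 calls at 7DIV, 2 to 4 at 21DIV (3 reported), 0 to 1 for the difference between stages, 5 to 9 for KCl and Bic, 1 to 2 for Bic against KCl, 1 to 2 for TTXw (2 reported), 4 to 5 for basal TTX and 3 to 6 between stages. The cause of these differences was not tested. Of 413 values of single calls under an alternative, 345 passed and 68 missed the threshold.

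Replicate numbers did not pair the libraries: the deviations of same-numbered libraries had a median correlation of 2.04e-05 in the maturation and 0.00755 in the stimuli experiment, over 0.1 in only 2 pairs of the first and 1 of the second. With the replicate block, Id4 and Notch1 between stages and Hes5 and Id2 with Bic (45 and 180 min) lost their calls. With all times in 1 test, Id3 (adjusted p = 0.109) and Hes6 (0.0858) were not called for Bic, whereas Id4 was (0.00467). Depth limits Dll1, Notch1 and, in basal 7DIV and in basal cultures of the stimuli experiment, Id3. KCl and Bic groups of the stimuli experiment, 21DIV BicAP groups and TTXw at 45 min have 2 libraries each, which limits every call on them.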
